A study of Mus musculus with 12 samples.

Results

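The liver stores glucose as glycogen when food is present and returns glucose to the blood when it is not. The enzymes that build glucose, burn it, store it and release it are switched largely at the level of transcription, by insulin after a meal and by glucagon and glucocorticoids during a fast. The 9 genes described here act at the main points of that switch. Pck1, G6pc and Fbp1 encode enzymes of gluconeogenesis and Ppargc1a encodes a coactivator of their transcription. Pklr encodes the liver pyruvate kinase of glycolysis, Gys2 the liver glycogen synthase and Pygl the liver glycogen phosphorylase. Igfbp1 encodes a secreted binding protein for insulin-like growth factors, and Irs2 an adaptor of the insulin receptor, and insulin represses both genes in hepatocytes. The members were taken by name from the 24187 genes in the count table, and all 9 were among the 22581 genes that passed the filter on low counts.

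RNA was sequenced from the livers of 12 mice. The study's methods give their strain as C57BL/6J in one place and as C57BL6/JOlaHsd in another. There were 3 untreated control mice, 5 mice given acetaminophen (APAP, paracetamol) at 350 mg/kg and PBS vehicle, and 4 mice given the same dose of APAP and hAAMs, which are human monocyte-derived macrophages polarised with IL-4 and IL-13. APAP in overdose kills hepatocytes around the central veins. Per the study's methods, mice were 10 to 12 weeks old, APAP followed a 12 h fast, food was then returned, and cells or vehicle were injected into the tail vein 16 h after APAP. The sources used here give 2 times of collection, 36 h in the methods and 32 h in a figure legend. They also place sequencing beside a higher-dose model, while the labels give the dose above for every injured mouse. The labels do not give the sex of these mice, the number of cells injected, the hour of the day at collection, or whether the control mice were fasted. They call the control mice untreated, while the study's general methods describe APAP or saline given after a fast, and whether these controls had either is not given. For genes that answer to feeding, APAP injury and the feeding history of the injured mice therefore cannot be told apart in the comparisons with control.

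Total counts per liver ranged from 47391650 to 74056505. The summed level of 9 hepatocyte markers was 102495 to 129791 counts per 1000000 (CPM) in control livers, 92151 to 125876 in vehicle livers and 97165 to 134557 in hAAM livers, so hepatocyte RNA was abundant in every group. Vehicle replicate 3 and hAAM replicate 4 were nearly identical, with a spread between them of 1.19 times counting noise against 2.19 to 4.27 for the other 35 pairs of injured livers. They carry different labels, so they were kept, and results that changed without them are given as such. Control replicate 1 was the highest of all 12 livers for 6 of the 9 members (Fbp1, Pklr, Gys2, Pygl, Igfbp1 and Irs2), and with only 3 control mice it weighs on each comparison with control. Results that rest on it are given with and without it.

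The promoters of 4 members are shown because glucagon and insulin are known to act on these genes through short motifs upstream of their starts. The motif TGACG is the core of the cAMP response element through which glucagon acts, and AAAACA lies within the insulin response sequences bound by FOXO factors. RefSeq promoters (GRCm38.p6) were at hand for 8 of the 9 members, in 9 windows because Pklr has 2 start sites, and Gys2 had no entry. In the 250 bases upstream of each start, 8 motifs were searched on both strands. TGACG was found in Pck1, Ppargc1a and Pygl and in 17.8% of all 32851 promoters of that length. AAAACA was found in G6pc, Igfbp1 and Irs2 and in 19.8% of all promoters. Of the other 6 motifs, the nuclear receptor half-site AGGTCA was in G6pc, Pklr and Pygl (14.0% of all promoters), the E-box CACGTG in Irs2 (6.02%) and the C/EBP half-site TTGCGC in Pygl (5.34%). The longer cAMP response element motif TGACGTC (2.78%), which contains TGACG, was in none of the members' windows. Nor were the longer FOXO motif GTAAACA (3.17%) and the glucocorticoid half-site AGAACA (16.1%). Each upstream stretch below is written 5′ to 3′ on the strand of its gene and ends at the base before the RefSeq start, with capitals marking TGACG or AAAACA on either strand. A match describes the letters and is not evidence of binding.
Pck1 (chr2:173152823-173153072, plus strand): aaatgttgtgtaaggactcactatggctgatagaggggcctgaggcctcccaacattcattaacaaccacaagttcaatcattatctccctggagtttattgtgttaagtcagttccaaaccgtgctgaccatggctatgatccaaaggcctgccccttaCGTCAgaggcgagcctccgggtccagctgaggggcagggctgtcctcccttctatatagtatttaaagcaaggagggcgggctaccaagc
Ppargc1a (chr5:51567726-51567975, minus strand): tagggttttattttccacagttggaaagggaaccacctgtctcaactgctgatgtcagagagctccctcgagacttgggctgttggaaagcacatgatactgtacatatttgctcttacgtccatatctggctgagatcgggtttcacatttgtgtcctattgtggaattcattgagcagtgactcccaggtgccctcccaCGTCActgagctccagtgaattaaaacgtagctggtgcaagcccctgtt
G6pc (chr11:101367466-101367715, plus strand): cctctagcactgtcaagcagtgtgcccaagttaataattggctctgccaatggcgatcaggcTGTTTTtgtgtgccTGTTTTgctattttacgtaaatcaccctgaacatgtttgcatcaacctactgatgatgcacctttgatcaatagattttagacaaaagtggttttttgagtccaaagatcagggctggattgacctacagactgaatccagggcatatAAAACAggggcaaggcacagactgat
Igfbp1 (chr11:7197537-7197786, plus strand): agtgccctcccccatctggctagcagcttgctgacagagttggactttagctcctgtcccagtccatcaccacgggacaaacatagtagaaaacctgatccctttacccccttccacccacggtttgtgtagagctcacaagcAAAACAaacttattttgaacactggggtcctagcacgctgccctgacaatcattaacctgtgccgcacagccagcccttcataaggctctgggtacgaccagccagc

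The Pck1 motif begins 90 bases before the start and the Ppargc1a motif 49 bases before it, both on the reverse strand. G6pc holds AAAACA at 3 places, beginning 188, 174 and 26 bases before the start. Igfbp1 holds it once, 107 bases before the start.

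The levels of the members differed widely in uninjured liver. Per kilobase of exon, Pck1 was the highest in control livers (517 ± 50.6 CPM per kb, SD, n = 3), followed by Fbp1 (366 ± 16.9) and Igfbp1 (188 ± 216). The next were Pygl (58.5 ± 23.0), G6pc (55.7 ± 10.0), Pklr (43.1 ± 28.4), Gys2 (28.2 ± 7.62) and Irs2 (6.49 to 40.9), and Ppargc1a was the lowest (1.17 ± 0.232). The ranges of Pck1 and Fbp1 did not overlap each other, nor did those of Irs2 and Ppargc1a. Every other pair of neighbours in this order overlapped, and Igfbp1 alone ran from 34.5 to 435 CPM per kb in the 3 control mice.

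**Figure D1:**
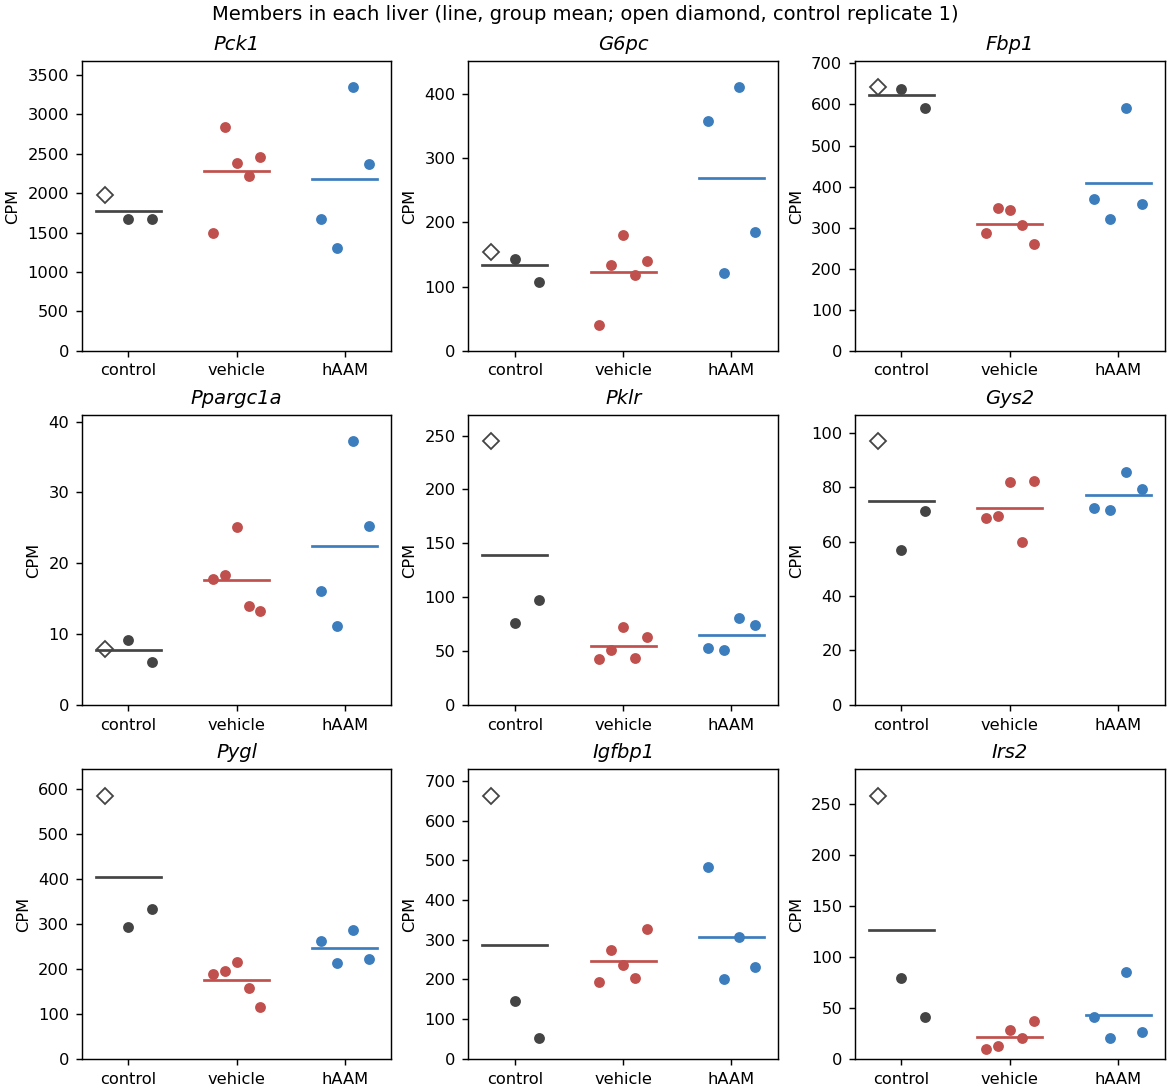
CPM of each member in each of the 12 livers, on linear axes from 0, by group, with a line at the group mean and an open diamond for control replicate 1. Fbp1, Pklr, Pygl and Irs2 lie lower in all 5 vehicle livers than in the control livers and Ppargc1a lies higher, while control replicate 1 stands above the other 2 controls for Pklr, Pygl, Igfbp1 and Irs2.

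The comparison of vehicle with control mice asks how these genes differed in injured liver. Irs2, Pklr, Pygl and Fbp1 fell and Ppargc1a rose, while Pck1, G6pc, Gys2 and Igfbp1 did not pass the test. That is 5 of 9 members at an FDR under 0.05 (edgeR's quasi-likelihood test with Benjamini-Hochberg adjustment), 1 higher and 4 lower, where 29.8% of all genes tested were called, 15.0% higher and 14.8% lower. Without control replicate 1 there were 3 of 9, Fbp1 and Pygl lower and Igfbp1 higher, where 4970 of 23090 genes were called. The median log2 fold change of the 9 was -0.21 against 0.01 over all genes. Of those that fell, Irs2 is a gene of the fasted liver and Pklr a gene of the fed liver, and Ppargc1a, which rose, is induced by fasting. At an unadjusted p under 0.05 the same count was 5 of 9 (41.8% of all genes), and for 5 of 9 the groups did not overlap (34.8% of all genes). Scaled by library size alone, without TMM, 88.6% of called genes were higher in place of 50.3%, and the median of all genes moved to 0.36. With hAAM against control the same scaling gave 89.4% in place of 51.8% and a median of 0.32, so log2 fold changes here are relative to the TMM scale.

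**Figure D2:**
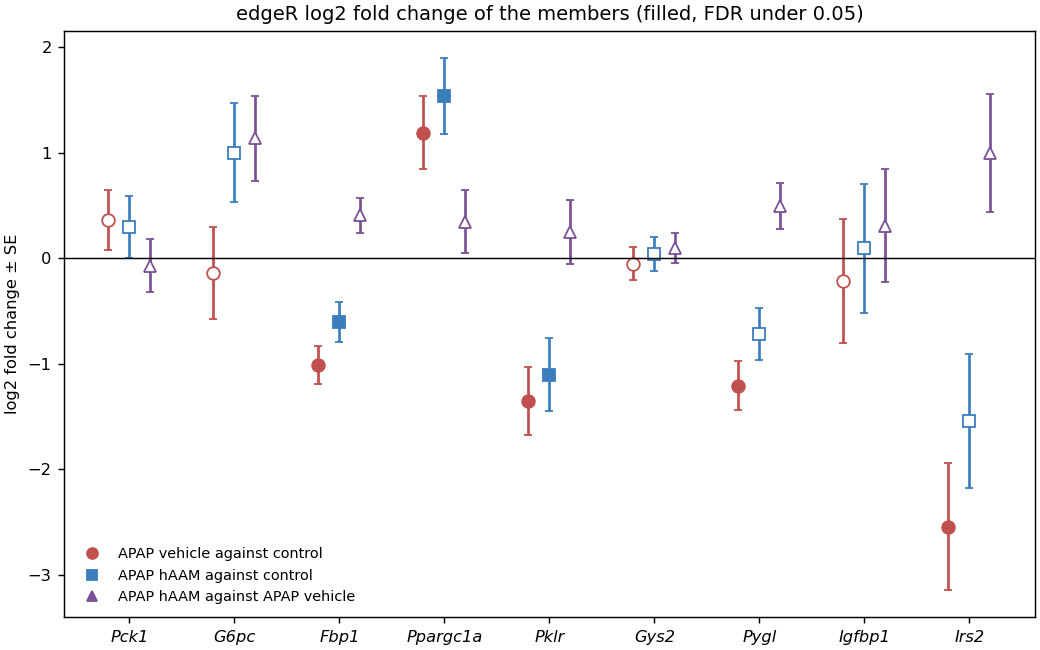
edgeR log2 fold change with its SE for the 9 members in the 3 comparisons, with filled symbols for an FDR under 0.05. With vehicle against control 5 symbols are filled, with hAAM against control 3, and with hAAM against vehicle 0.

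Among the genes of glucose production, Fbp1 (ENSMUSG00000069805, chr13:62864753-62888282), the fructose bisphosphatase, fell in both injured groups. Its levels were 641, 639 and 590 CPM in control livers, 286, 349, 343, 307 and 260 CPM in vehicle livers, and 369, 320, 592 and 357 CPM in hAAM livers. All vehicle livers lay below all controls, and hAAM replicate 3 alone among the injured livers reached the control range. Fbp1 was lower by 1.01 ± 0.177 (SE) on the log2 scale with vehicle (log2 fold change -1.01, edgeR FDR = 0.00192). That call held in all 12 fits that left out a single liver and in all 10 other settings. With hAAM against control the log2 fold change was -0.61 ± 0.188 (edgeR FDR = 0.0391), a call that held in only 3 of the 12 fits with a liver left out, with FDR values from 0.00183 (without hAAM replicate 3) to 0.102. It was lost without both nearly identical livers (-0.54, edgeR FDR = 0.098).

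Pck1 (ENSMUSG00000027513, chr2:173153048-173159273), the phosphoenolpyruvate carboxykinase that commits carbon to glucose, was the most abundant member in every group. It measured 1972, 1675 and 1669 CPM in control livers, 1492, 2843, 2387, 2214 and 2456 CPM in vehicle livers, and 1677, 1308, 3340 and 2367 CPM in hAAM livers. In the vehicle group 4 of 5 livers were above every control and 1 was below every control. It differed by 0.36 ± 0.280 on the log2 scale with vehicle (edgeR FDR = 0.352) and 0.29 ± 0.291 with hAAM (edgeR FDR = 0.505). Scaled by library size alone, the difference with vehicle was called, at 0.70 (edgeR FDR = 0.03).

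G6pc (ENSMUSG00000078650, chr11:101367561-101377903) encodes the glucose-6-phosphatase that frees glucose for export. Its levels were 154, 142 and 107 CPM in control livers, 39.6, 134, 180, 117 and 140 CPM in vehicle livers, and 358, 121, 410 and 186 CPM in hAAM livers. Vehicle replicate 1 was far below every other liver, and hAAM replicates 1 and 3 were the only livers above 300 CPM. The log2 fold change was -0.14 ± 0.438 with vehicle (edgeR FDR = 0.840), and it turned to 0.09 without vehicle replicate 1 and to 0.20 with library size alone. With hAAM against control it was 1.00 ± 0.471 (edgeR FDR = 0.151), which was called with library size alone (1.27, edgeR FDR = 0.044).

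Ppargc1a (ENSMUSG00000029167, chr5:51454250-51567726), the coactivator PGC-1α, was the only member that rose. Its levels were 7.89, 9.15 and 6.11 CPM in control livers, 17.7, 18.3, 25.1, 13.9 and 13.2 CPM in vehicle livers, and 16.04, 11.2, 37.2 and 25.2 CPM in hAAM livers. All 9 injured livers lay above all 3 controls. Its log2 fold change was 1.19 ± 0.347 with vehicle (edgeR FDR = 0.0228) and 1.54 ± 0.362 with hAAM (edgeR FDR = 0.0129). The call with vehicle was lost without control replicate 1 (1.21, edgeR FDR = 0.0632) and without control replicate 3 (1.05, edgeR FDR = 0.0908), and that with hAAM without control replicate 3 (1.40, edgeR FDR = 0.0573).

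In glycolysis, the liver pyruvate kinase Pklr (ENSMUSG00000041237, chr3:89136142-89146784), which carries carbon to pyruvate, fell in both injured groups. It measured 245, 75.7 and 97.7 CPM in control livers, 42.9, 51.0, 72.7, 43.3 and 62.9 CPM in vehicle livers, and 53.2, 51.3, 80.6 and 74.3 CPM in hAAM livers. The vehicle livers lay below all controls, by little for replicate 3, and hAAM replicate 3 overlapped the lowest control. Control replicate 1 was 2.82 times the mean of the other 2 controls. The log2 fold change was -1.35 ± 0.325 with vehicle (edgeR FDR = 0.00931) and -1.10 ± 0.345 with hAAM (edgeR FDR = 0.0406). Without control replicate 1 neither was called, at -0.67 (edgeR FDR = 0.0608) and -0.42 (edgeR FDR = 0.27), and the call with hAAM held in 5 of the 12 fits with a liver left out. It was lost without both nearly identical livers (-1.17, edgeR FDR = 0.0575).

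Of the 2 glycogen enzymes, Pygl was called and Gys2 was not. Gys2 (ENSMUSG00000030244, chr6:142422613-142473109), the liver glycogen synthase, stayed within a narrow range. It was 96.8, 56.8 and 71.3 CPM in control livers, 68.6, 69.4, 81.8, 59.98 and 82.2 CPM in vehicle livers, and 72.3, 71.7, 85.7 and 79.2 CPM in hAAM livers. Every injured liver lay inside the control range. The log2 fold change was -0.05 ± 0.155 with vehicle (95% interval -0.35 to 0.25, edgeR FDR = 0.835) and 0.04 ± 0.162 with hAAM (95% interval -0.28 to 0.36, edgeR FDR = 0.876). The sign with vehicle turned without control replicate 1 (0.18) and with library size alone (0.29), and no call was made in either case.

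Pygl (ENSMUSG00000021069, chr12:70190811-70231488), the phosphorylase that releases glucose from glycogen, fell with vehicle. Its levels were 585, 292 and 333 CPM in control livers, 189, 195, 215, 158 and 115 CPM in vehicle livers, and 262, 212, 287 and 223 CPM in hAAM livers. All 9 injured livers were below all controls, and 3 of the 4 hAAM livers were above all vehicle livers. The log2 fold change was -1.21 ± 0.232 with vehicle (edgeR FDR = 0.00301). This call held in all 12 fits with a liver left out, at -0.84 without control replicate 1 (edgeR FDR = 0.0161), and in all 10 other settings. With hAAM it was -0.71 ± 0.246 (edgeR FDR = 0.0590), which missed the threshold although the groups did not overlap, a pattern shared by 28.5% of all genes in that comparison. It was called by DESeq2 (adjusted p = 0.0307) and by edgeR without control replicate 2 or without vehicle replicate 5.

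Irs2 and Igfbp1 were the most variable members among control mice. Irs2 (ENSMUSG00000038894, chr8:10984681-11008458), which passes the insulin signal on to PI3-kinase, had 258, 79.9 and 41.0 CPM in control livers, 10.0, 13.1, 27.9, 20.1 and 37.4 CPM in vehicle livers, and 40.9, 20.3, 85.7 and 26.8 CPM in hAAM livers. All vehicle livers lay below all controls and 1 hAAM liver lay between the controls. Its log2 fold change with vehicle was the largest among the members, at -2.54 ± 0.604 (edgeR FDR = 0.00892), and it was -1.54 ± 0.637 with hAAM (edgeR FDR = 0.105). Without control replicate 1, which was 4.28 times the mean of the other 2 controls, these were -1.48 (edgeR FDR = 0.0763) and -0.47 (edgeR FDR = 0.624). Without hAAM replicate 3 the difference with hAAM was called (-2.11, edgeR FDR = 0.0357).

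Igfbp1 (ENSMUSG00000020429, chr11:7197782-7202546), which rises in the fasted liver and after liver injury, measured 663, 145 and 52.6 CPM in control livers. It was 195, 274, 236, 203 and 327 CPM in vehicle livers and 484, 201, 308 and 232 CPM in hAAM livers. The injured livers all lay between the highest control and the middle control. It differed by -0.22 ± 0.583 on the log2 scale with vehicle (edgeR FDR = 0.810) and 0.09 ± 0.614 with hAAM (edgeR FDR = 0.930). Without control replicate 1, which was 6.70 times the mean of the other 2, both comparisons were called as higher, at 1.32 with vehicle (edgeR FDR = 0.046) and 1.63 with hAAM (edgeR FDR = 0.0348). With all 3 controls in the fit, no direction of Igfbp1 was called in any setting.

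**Figure D3:**
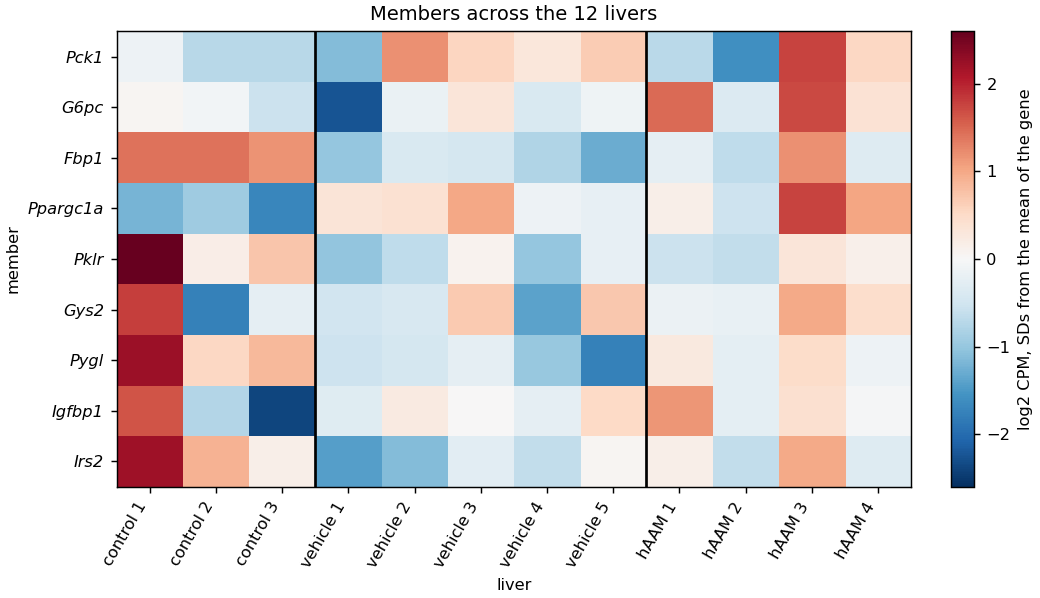
log2 CPM of each member in each liver, as SDs from the mean of that gene over the 12 livers, with black lines between the groups. Control replicate 1 is the highest liver for 6 of 9 members, and hAAM replicate 3 is the highest for Pck1, G6pc and Ppargc1a.

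Compared with control, hAAM mice had 3 of 9 members called, Ppargc1a higher and Fbp1 and Pklr lower, where 20.7% of all genes were called (10.7% higher and 9.96% lower). Without control replicate 1 there were 2, Ppargc1a and Igfbp1, both higher, where 3027 of 23090 genes were called. With library size alone there were also 2, G6pc and Ppargc1a, where 7340 of 22581 genes were called. In that scaling Fbp1 was at -0.33 (edgeR FDR = 0.102) and Pklr at -0.82 (edgeR FDR = 0.0657). At an unadjusted p under 0.05 there were 5 of 9 (35.2% of all genes), and Ppargc1a and Pygl were the 2 of 9 members whose groups did not overlap (28.5% of all genes). The median of the 9 was 0.04 against 0.02 over all genes. The 2 comparisons with control share the 3 control mice.

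The direct comparison of hAAM with vehicle asks whether the cell product changed these genes in injured liver. None of the 9 members was called by edgeR (0 of 22581 genes, 0.0%), and DESeq2 called 1 gene and no member. At an unadjusted p under 0.05 there were 3 members, all higher with hAAM, and 1133 genes in all (5.02%). G6pc was higher by 1.14 ± 0.403 (95% interval 0.35 to 1.93, edgeR FDR = 0.966), with 3 of 4 hAAM livers above all vehicle livers. Fbp1 was higher by 0.41 ± 0.165 (edgeR FDR = 0.966) and Pygl by 0.50 ± 0.217 (edgeR FDR = 0.966), each again with 3 of 4 hAAM livers above all vehicle livers. These fail the correction over all genes. In all, 8 of 9 members had a higher fitted level with hAAM, with a median log2 fold change of 0.35 against 0.003 over all genes, and no member had groups that did not overlap (1.4% of all genes). Some other sets lay on the same side and some on the opposite side, with none of their genes called by edgeR. All 8 pericentral hepatocyte markers had a higher fitted level with hAAM, with a median of 0.77 and 4 at an unadjusted p under 0.05. The same held for 14 of 15 other feeding-induced genes, with a median of 0.34 and 1 at an unadjusted p under 0.05. Sets on the opposite side included the neutrophil and endothelial markers, each with 0 of 6 higher (medians -0.415 and -0.113). Of the genes of glucose transport and pyruvate fate, 4 of 16 were higher (median -0.066).

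For the remaining members the intervals show what the data allow. Irs2 differed by 1.00 (95% interval -0.10 to 2.10) and Igfbp1 by 0.31 (-0.74 to 1.36), which leaves room for large changes either way for Igfbp1. Pck1 differed by -0.07 (-0.57 to 0.43), Ppargc1a by 0.35 (-0.24 to 0.94), Pklr by 0.25 (-0.35 to 0.85) and Gys2 by 0.09 (-0.19 to 0.37). In the hAAM group, replicate 3 had the highest level of 8 of the 9 members, the exception being Igfbp1. Without it the differences were 0.86 for G6pc, 0.17 for Fbp1, 0.43 for Irs2, 0.13 for Pklr and -0.01 for Ppargc1a. The 2 nearly identical livers lie on opposite sides of this comparison. With both left out edgeR called 0 genes, and 1530 of 22477 had an unadjusted p under 0.05, against 1133 of 22581 with all livers.

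Several members have a related counterpart encoded by another gene. Pkm, the pyruvate kinase of muscle, immune and proliferating cells, was 22.5, 21.9 and 18.5 CPM in control livers, 141, 104, 57.0, 194 and 145 CPM in vehicle livers, and 152, 169, 54.4 and 54.8 CPM in hAAM livers. All injured livers were above all controls, and vehicle replicate 3 and hAAM replicates 3 and 4 formed the low end. Its log2 fold change was 2.61 ± 0.475 with vehicle (edgeR FDR = 0.00234) and 2.36 ± 0.479 with hAAM (edgeR FDR = 0.00669). Per kilobase, Pklr made up 89.2% ± 5.09 (SD, n = 3) of the sum of Pklr and Pkm in control livers, 41.5% ± 15.5 (n = 5) in vehicle livers and 51.1% ± 20.3 (n = 4) in hAAM livers. The highest injured liver, at 69.6%, stayed below the lowest control, at 84.2%.

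Pygb, the brain phosphorylase, rose by 0.63 ± 0.168 with vehicle (edgeR FDR = 0.0150) and 0.73 ± 0.175 with hAAM (edgeR FDR = 0.0136), yet Pygl still made up 86.5% to 93.1% of the 2 per kilobase in injured livers. Gys1, the muscle glycogen synthase, rose with vehicle (0.61, edgeR FDR = 0.0227), and its 0.47 with hAAM did not pass (edgeR FDR = 0.0903). Pck2, the mitochondrial carboxykinase, rose by 0.98 ± 0.174 with vehicle (edgeR FDR = 0.00210) and by 1.04 ± 0.181 with hAAM (edgeR FDR = 0.00350), but Pck1 made up 99.68% or more of their sum in every liver. Ppargc1b rose with vehicle (1.02, edgeR FDR = 0.0197) and had 0.78 with hAAM (edgeR FDR = 0.0840). It was present at about the level of Ppargc1a, which made up 50.7% ± 12.1 (SD, n = 3) of their sum per kilobase in control livers. Irs2 made up 72.9% ± 16.2 (SD, n = 3) of the sum with Irs1 in control livers and 44.8% ± 11.9 (SD, n = 5) in vehicle livers. The ranges of control (57.5% to 89.9%) and vehicle livers (29.8% to 60.5%) overlapped. In hAAM livers the mean share of Irs2 was 57.7% (47.7% to 73.8%, n = 4). Irs1 fell with vehicle on the TMM scale (-0.32, edgeR FDR = 0.0475) and was at 0.02 with library size alone. Fbp2 and Pygm were not called in any comparison.

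**Figure D4:**
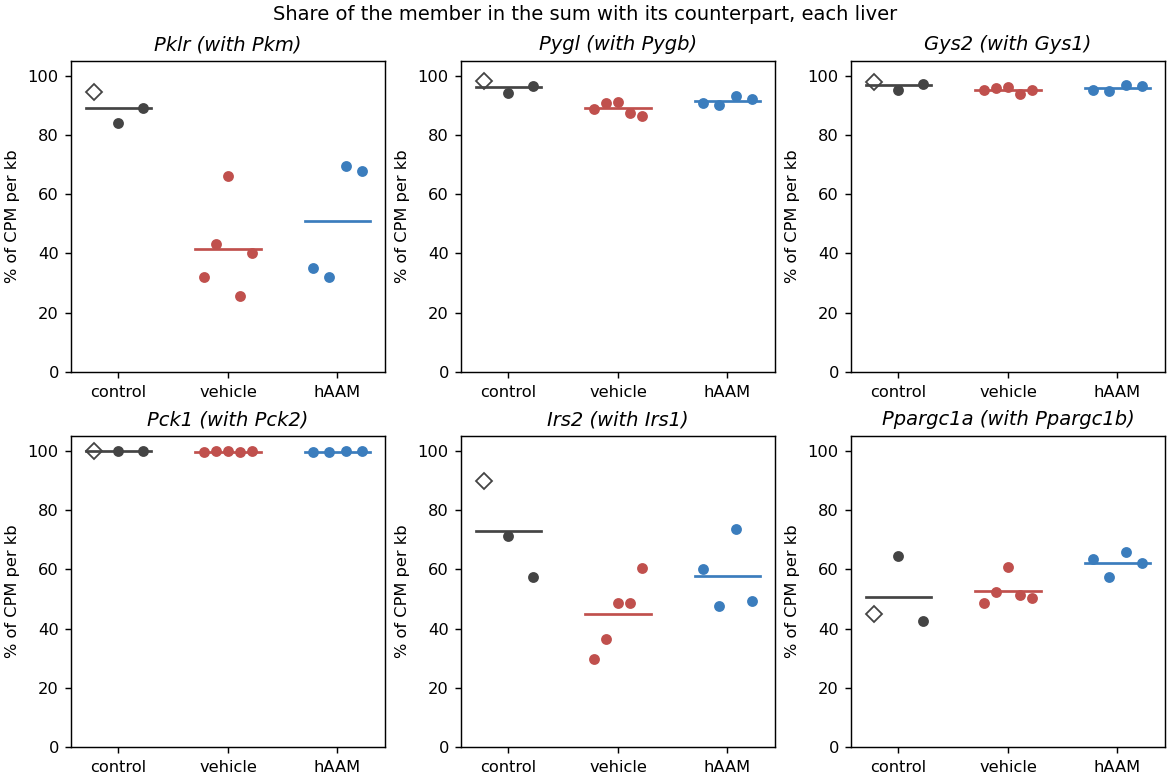
Share of each of 6 members in the sum of CPM per kb with its counterpart gene, in percent, for each liver, with a line at the group mean and an open diamond for control replicate 1. The Pklr share drops from 84.2% or more in control livers to 69.6% or less in injured livers, while Pck1 and Gys2 keep nearly all of theirs.

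Several of the marker sets for other cells moved in the same livers. The summed level of 10 macrophage markers was 295 to 359 CPM in control, 389 to 638 in vehicle and 384 to 612 in hAAM livers, and 5 of 10 rose in each comparison with control, where 15.0% of all genes rose with vehicle and 10.7% with hAAM. For 7 stellate and fibroblast markers the sums were 313 to 470, 491 to 887 and 486 to 1080 CPM, with 3 of 7 higher in each. The 8 pericentral hepatocyte markers summed to 3873 to 6235 CPM in control, 347 to 1447 in vehicle and 452 to 2826 in hAAM livers, and 8 of 8 fell with vehicle and 6 of 8 with hAAM (14.8% and 9.96% of all genes). The 8 periportal markers, for cells around the portal veins where gluconeogenesis is strongest, summed to 39039 to 65917, 50121 to 73528 and 51497 to 75245 CPM. They include Alb, which is also among the hepatocyte markers, so this sum is not specific to periportal cells. In each comparison 2 of 8 were called, near the share over all genes (29.8% and 20.7%). With vehicle Sds rose and Cyp2f2 fell, and with hAAM Sds and Hsd17b13 rose. The 5 erythroid markers summed to 135 to 240, 220 to 2025 and 226 to 733 CPM, with 4 higher and 1 lower with vehicle and 1 lower with hAAM. Endothelial markers had 2 of 6 higher with vehicle and 1 of 6 with hAAM. Of the 6 neutrophil, 6 lymphocyte and 6 cholangiocyte markers edgeR called none in either comparison with control. At an unadjusted p under 0.05 there were 2 neutrophil and 1 cholangiocyte markers with vehicle and 1 cholangiocyte marker with hAAM. The cholangiocyte sums were 40.4 to 65.8 CPM in control, 64.6 to 301 in vehicle and 64.0 to 231 in hAAM livers. No marker was at 0 in every liver. In bulk liver, fewer cells of a type and less RNA per cell cannot be told apart, and the part of these cell types in the changes of Pkm, Pklr, Pygl, Fbp1 and Irs2 was not tested.

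The genes around the members were read from 8 lists of the same pathways. Together they held 159 tested genes, of which 25 rose and 30 fell with vehicle (34.6%, against 29.8% of all genes), and 21 rose and 23 fell with hAAM (27.7%, against 20.7%). The direct comparison called 0 of 159 with edgeR, and 12 had an unadjusted p under 0.05 (5.02% of all genes did). The medians of the 159 were near 0, at -0.003 with vehicle and -0.001 with hAAM.

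Among 31 genes of insulin and glucagon signalling, 12 fell and 2 rose with vehicle (45.2%, against 29.8% of all genes), and 10 fell and 3 rose with hAAM (41.9%, against 20.7%). The receptors of both hormones, Insr and Gcgr, were among those that fell in both comparisons. Ptpn1, the phosphatase that dampens the insulin receptor, fell by 0.74 with vehicle (log2 fold change -0.74, edgeR FDR = 0.000245). Akt2, the main insulin-regulated kinase of liver, had -0.66 (edgeR FDR = 0.000383), the CREB coactivator Crtc3 -0.66 (edgeR FDR = 0.000718) and the FOXO factor Foxo4 -0.80 (edgeR FDR = 0.000864). The genes that fell thus included some that pass the insulin signal on and some that dampen it.

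Of 26 transcriptional regulators, 7 fell and 3 rose with vehicle (38.5%, against 29.8% of all genes) and 5 fell and 1 rose with hAAM (23.1%, near the 20.7% of all genes). Mlxipl, which encodes the glucose-sensing factor ChREBP and drives Pklr, had 468, 351 and 453 CPM in control livers, 101, 136, 212, 97.0 and 99.2 CPM in vehicle livers, and 183, 137, 227 and 213 CPM in hAAM livers. All injured livers lay below all controls. Its log2 fold change was -1.72 ± 0.251 with vehicle (edgeR FDR = 0.000770) and -1.16 ± 0.266 with hAAM (edgeR FDR = 0.0116). The deacetylase Sirt1 had -0.54 with vehicle (edgeR FDR = 0.00560) and the clock repressor Cry2 0.64 (edgeR FDR = 0.00481). The other clock repressor of the list, Cry1, fell with vehicle by 1.07 on the log2 scale (edgeR FDR = 0.00595), with all 5 vehicle livers below all controls, and had -0.45 with hAAM (edgeR FDR = 0.219).

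In the list of 28 enzymes of glycolysis and gluconeogenesis, 6 rose and 1 fell with vehicle (25.0%, against 29.8% of all genes), and 5 rose and 0 fell with hAAM (17.9%, against 20.7%; edgeR, with 11 genes at an unadjusted p under 0.05). Those that rose with vehicle were Aldoa (0.85, edgeR FDR = 0.00645), the aldolase of muscle, Hk1, Hk3, Pfkp, Pck2 and Pkm, and Mdh1 fell (-0.68, edgeR FDR = 0.00694). Of 16 genes of glucose transport and pyruvate fate, 2 rose and 1 fell with vehicle (18.8%). Slc2a1, the widely used transporter GLUT1, rose by 1.35 (edgeR FDR = 0.000724). Pdk3, a pyruvate dehydrogenase kinase, rose by 1.24 (edgeR FDR = 0.0271), and Pdp2, the opposing phosphatase, had -1.05 (edgeR FDR = 0.00476). With hAAM 2 of this list rose and 2 fell (25.0%).

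Of 24 genes of glycogen synthesis and breakdown, 6 rose and 5 fell with vehicle (45.8%, against 29.8% of all genes) and 4 rose and 3 fell with hAAM (29.2%, against 20.7%). The branching enzyme Gbe1 had -0.84 (edgeR FDR = 0.000794) and the phosphorylase kinase subunit Phkb -0.38 (edgeR FDR = 0.00143) with vehicle. Gyg, which primes glycogen, rose by 0.86 (edgeR FDR = 0.00279), and Pgm2 by 1.30 (edgeR FDR = 0.00200). Phkb with hAAM was -0.24 (edgeR FDR = 0.0244) and turned to 0.06 with library size alone.

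Of 18 other genes that a fast or glucocorticoids induce, 5 rose and 0 fell with vehicle (27.8%, where 15.0% of all genes rose) and 6 rose and 0 fell with hAAM (33.3%, where 10.7% rose; edgeR). The median log2 fold change of the 18 was 0.56 with vehicle, with 17 above 0, and 0.53 with hAAM, with 14 above 0. The clock gene Per1 was 27.5, 30.9 and 19.6 CPM in control livers, 47.5 to 69.5 CPM in vehicle livers and 56.0 to 72.7 CPM in hAAM livers, with no overlap. Its log2 fold change was 1.14 ± 0.166 with vehicle (edgeR FDR = 0.000769). Fkbp5, a glucocorticoid-induced chaperone, rose by 1.87 (edgeR FDR = 0.000260), Gpt2 by 0.78 (edgeR FDR = 0.00200) and the serine dehydratase Sds by 1.33 (edgeR FDR = 0.0240). Among 15 feeding-induced genes, 4 fell and 0 rose with vehicle (26.7%, where 14.8% of all genes fell) and 3 fell and 0 rose with hAAM (edgeR; 9.96% of all genes fell). Their medians were -0.985 and -0.27, beside 0.01 and 0.02 over all genes. The lipogenic enzymes Elovl6 (-2.13, edgeR FDR = 0.000351), Acaca (-1.02, edgeR FDR = 0.000769), Me1 (-1.57, edgeR FDR = 0.000999) and Fasn (-1.88, edgeR FDR = 0.00626) were those 4. Pck1, G6pc and Igfbp1, which a fast also induces, were not called in the same livers.

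Of 8 other IGF binding proteins and insulin receptor substrates, Igfbp3 rose (0.68, edgeR FDR = 0.0488) and Irs1 fell with vehicle (25.0%, against 29.8% of all genes). With hAAM edgeR called 0 of 8, with 1 at an unadjusted p under 0.05. The 3 genes with the smallest p between hAAM and vehicle in all lists were Nr3c1, the glucocorticoid receptor (0.22), Cry1 (0.62) and the nuclear receptor Nr4a1 (2.57), each with an edgeR FDR of 0.966. Nr4a1 was 117 CPM in hAAM replicate 3 and 11.4 CPM or less in every other liver.

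Pairs of members were compared over the 9 injured livers, with control mice left out. Of 36 pairs, only Pklr and Gys2 passed by both coefficients in an exact permutation test, with Pearson's r = 0.914 (p = 0.000521, adjusted p = 0.0188) and Spearman's rho = 0.917 (p = 0.00131, adjusted p = 0.0236, n = 9, exact permutation). Without the 2 livers farthest from the median of Pklr, r was 0.90. With the 2 nearly identical livers averaged it was 0.916 (n = 8, exact permutation, adjusted p = 0.0348), and with values centred on each treatment group 0.905 (n = 9, exact permutation, adjusted p = 0.0338), but its rho of 0.833 then missed the threshold (adjusted p = 0.0775, exact permutation). With library size alone it was 0.732 and no pair passed (n = 9, exact permutation, adjusted p = 0.357). The treatment groups, of 5 and 4, were too small to be tested apart.

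By Spearman's rho alone 4 other pairs passed, Fbp1 with Pygl (rho = 0.933, adjusted p = 0.0236, n = 9, exact permutation), G6pc with Irs2, G6pc with Pklr (rho = 0.883, adjusted p = 0.0277) and Gys2 with Irs2 (rho = 0.850, adjusted p = 0.0437). None of these 4 passed with values centred on treatment group (n = 9, exact permutation, adjusted p from 0.0554 to 0.249), and Gys2 with Irs2 was also lost with the nearly identical livers averaged (n = 8, exact permutation, adjusted p = 0.0551). The next pair by the p of Pearson's r was G6pc and Irs2, with r = 0.873 (n = 9, exact permutation, p = 0.00392, adjusted p = 0.0706) and rho = 0.883 (p = 0.00308, adjusted p = 0.0277, exact permutation). Its r was 0.66 without the 2 livers farthest from the median of G6pc. Both genes hold AAAACA upstream, as do 19.8% of all promoters, and whether the motif bears on this pair was not tested. Igfbp1 also holds it and passed with neither gene. The adjusted p of its Pearson's r was 0.163 with G6pc and 0.197 with Irs2 (n = 9, exact permutation).

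**Figure D5:**
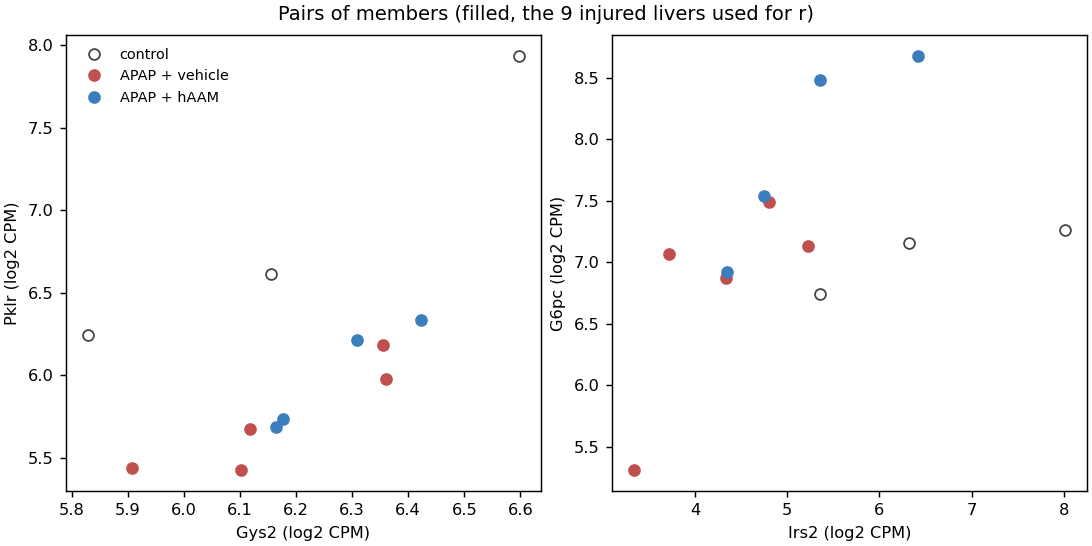
log2 CPM of Pklr against Gys2 and of G6pc against Irs2, 1 point per liver, with filled points for the 9 injured livers and open points for control mice. Pklr and Gys2 rise together among the injured livers (r = 0.914), and the control points lie above that line.

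Likeness to other genes was measured over all 12 livers, whose values share the contrast of injured and control mice. Of the 11172 genes searched, whose log2 CPM averaged 2 or more, those most like Fbp1 included Adhfe1 and Gpx1 (Pearson's r = 0.972 and 0.970, n = 12). For Pygl they were Paics, Atp5j2 and Akr1c14 (0.975, 0.974 and 0.969) and for Pklr Usp53, Med13l and H2-Q5 (0.964, 0.957 and 0.956). Ppargc1a was most like Gm33543, Slco1a4 and Gm32461 (0.958, 0.954 and 0.944). G6pc was most like Slc25a25 (0.931), Irs2 most like Gfod1 (0.933) and Gys2 most like Rabgef1 (0.907). The closest genes of Pck1 (N4bp2l1, 0.868) and Igfbp1 (Fst, 0.851) were less close. These values describe the 12 livers and carry no test.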

How the data were processed

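Bulk RNA was measured in 12 livers. Per the labels and the study's methods, the authors depleted ribosomal RNA, made directional libraries, trimmed the reads (Cutadapt 4.6), aligned them to GRCm38 (STAR 2.7.1a) and obtained gene counts by summarizeOverlaps. The strand setting of the counting is not given in the sources used here, so overlapping and antisense genes may share reads. The authors deposited raw counts per Ensembl gene, with a lowest row total of 15. No column was left without a sample. Reads from the human cells were not separated from mouse reads here.

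Groups came from the labels. Symbols, coordinates and exon lengths came from GENCODE vM21 on the same build, and 59 genes had no symbol. Genes were filtered with filterByExpr by group, scaled with TMM, and fitted in edgeR 4.0.16 (R 4.3.3) by quasi-likelihood over all 12 livers, without a replicate block, with 2-sided p-values, Benjamini-Hochberg FDR and a threshold of 0.05. The biological coefficient of variation was 0.214, and the TMM factors were 0.832 to 0.859 in control livers and 0.933 to 1.14 in injured livers. CPM are TMM-scaled, log2 CPM carry a prior count of 2, and levels per kb divide by exon length. That length merges the exons of all annotated transcripts of a gene, so levels and shares per kb depend on the annotation. The 95% intervals are the fold change and its error on a normal scale. Of symbols on several IDs (18), the ID with the most counts was used. Correlations used exact permutation tests, computed with SciPy 1.17.1. P-values measure the spread between mice. The script was tested on simulated data. DESeq2 1.42.0, other scalings, filters and designs, left-out livers, and the nearly identical pair left out were the alternatives.

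The members and all gene lists were chosen with earlier results of these data known. Named genes were all 9 members and their counterparts, up to 4 genes per list with the smallest p among those called with vehicle against control, the 3 genes of the lists with the smallest p between hAAM and vehicle, and the 3 genes most like each member; 2 genes that this rule names are not reported here. Insr, Gcgr, Hk1, Hk3 and Pfkp were named outside this rule after their calls were seen. Fbp2 was too low for a share. The labels' protocol speaks of 14 libraries, and 12 were analysed here.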

Additional observations from a re-analysis of the deposited data

Results flagged for a closer look

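In 90 checks of a group of 4 or 5 livers, 4 genes had a liver that stood apart from the rest of its group on the log2 CPM scale by Dixon's test, and chance gives about 1 in 20. G6pc was at 39.6 CPM in vehicle replicate 1 and at 117 to 180 CPM in the other vehicle livers. Fkbp5 was at 56.9 CPM in hAAM replicate 1 and at 101 to 109 CPM in the other hAAM livers. Nr3c1 was at 118 CPM in hAAM replicate 3 and at 100 to 102 CPM in the others. Pdp2 was at 17.4 CPM in vehicle replicate 4 and at 24.9 to 27.4 CPM in the others. Nr4a1, at 117 CPM in hAAM replicate 3 and 3.72 to 9.72 CPM in the other hAAM livers, did not pass this test on the log2 scale.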

How the results depend on the processing

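With vehicle against control, 6719 genes and 5 members were called, and Fbp1 and Pygl were called in every setting tried. Genes called were 9747 with library size alone (6 members, Pck1 added), 7678 with DESeq2, 4253 with the replicate block and 3183 at an FDR under 0.01, and leaving out single livers gave 4633 to 7197 genes and 3 to 5 members. With hAAM against control, 4666 genes and 3 members were called. There were 7340 genes with library size alone, which called 2 members, G6pc and Ppargc1a, and ended the calls of Fbp1 (-0.33, edgeR FDR = 0.102) and Pklr (-0.82, edgeR FDR = 0.0657). There were 2729 of 21492 genes with only the 2 groups compared and 4412 of 22477 without both nearly identical livers. Of 22581 genes, 2959 were called with the replicate block and 1543 at an FDR under 0.01. Members called were 1 with only the 2 groups, 1 with the replicate block, 1 without both nearly identical livers and 0 at an FDR under 0.01 (edgeR, 5 at an unadjusted p under 0.05), while DESeq2 called 5815 genes and 4 members, Pygl added. Leaving out single livers gave 2419 to 5456 genes and 1 to 4 members. Between hAAM and vehicle, DESeq2 called 1 gene, and leaving out single livers gave 0 to 1 genes and 0 members by edgeR. With library size alone 0 pairs of members were correlated past the threshold. The cause of these moves was not tested.

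Same-numbered livers did not deviate together (r from -0.458 to 0.385), so the numbers share only a name. The replicate block left 4 members called with vehicle (Ppargc1a lost) and 1 with hAAM.

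Some directions turned, and of the called differences these were Irs1 with vehicle and Phkb with hAAM. With library size alone, vehicle against control gave G6pc 0.20, Gys2 0.29, Igfbp1 0.13, Irs1 0.018, Nr3c1 0.11 and Pygm 0.24. In the same scaling hAAM against control gave Irs1 0.11, Nr3c1 0.28, Phkb 0.062 and Pygm 0.21, and hAAM against vehicle gave Akt2 -0.032 and Pygm -0.028. The replicate block gave Igfbp1 0.35 with vehicle and Fbp2 0.26 between treatments. Without both nearly identical livers Nr3c1 was 0.004 with hAAM and Pdk3 0.05 between treatments.

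Where leaving out a single liver turned a direction, the log2 fold changes ranged as follows. With vehicle against control they were -0.32 to 0.09 for G6pc, -0.22 to 0.18 for Gys2, -0.71 to 1.32 for Igfbp1 and -0.20 to 1.77 for Nr4a1. With hAAM against control they were -0.12 to 0.27 for Gys2, -0.40 to 1.63 for Igfbp1 and -0.072 to 0.013 for Nr3c1. Between hAAM and vehicle they were -0.35 to 0.11 for Pck1, -0.011 to 0.57 for Ppargc1a, -0.00 to 0.47 for Igfbp1, -0.026 to 0.067 for Akt2, -0.21 to 0.02 for Aldoa, -1.49 to 0.34 for Fbp2 and -0.21 to 0.004 for Gyg. The others were -0.22 to 0.091 for Igfbp3, -0.035 to 0.15 for Pck2, -0.30 to 0.18 for Pdk3, -0.065 to 0.11 for Pygm and -0.079 to 0.39 for Sds. Each member had at least 309 counts in every liver.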
